A study of Mus musculus with 4 samples.

Results

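The hematopoietic growth factor receptors Flt3, Kit, Csf1r, Csf2ra, Csf2rb, Csf2rb2, Csf3r and Il3ra and the growth factor Csf1 were examined on Affymetrix mouse expression arrays. The members are 9 genes of the 12394 measured. Every probe set annotated to exactly 1 of these symbols was taken, which gave 16 of the 20393 probe sets with 1 gene symbol: 6 for receptor tyrosine kinases, 6 for cytokine receptor chains and 4 for Csf1. The study had 2 Cre-GFP arrays and 2 control arrays. All arrays came from bone marrow of Mll-AF4stop knock-in mice, whose fusion construct stays silent until the recombinase Cre acts on it, and all mice had received 5-FU (5-fluorouracil), which is toxic to dividing marrow cells. Marrow taken 5 days later was infected in culture with a Cre-GFP retrovirus or with a control GFP retrovirus, and GFP+ cells were sorted 2 days afterwards and kept for 14 days with cytokines for lymphoid progenitors. The sample labels call the control virus MIG-GFP or GFP-control, whereas the series' design text names it MIG-Cre. If the control virus carried Cre, the comparison would not set an active against a silent fusion. If it carried none, effects of the fusion and of Cre itself cannot be told apart. Age, sex and strain background are not given in the sources used here, nor is it said whether replicate arrays stem from different animals or cultures. The p-values therefore cover the variation among 4 arrays and no more, and part or all of it may be technical.

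Flt3, Kit and Csf1r are receptor tyrosine kinases. Each is a single chain that pairs with a copy of itself when its growth factor binds, and its own kinase domain then starts signalling. Flt3 and Kit mark early progenitors, and Csf1r, bound by Csf1 (macrophage colony-stimulating factor), is the receptor on which monocytes and macrophages depend. Cytokine receptor chains have no kinase and signal through Jak kinases and Stat factors bound to their inner tails. Csf2ra and Il3ra are the chains that bind GM-CSF and interleukin 3, Csf2rb is the beta chain that both share, Csf2rb2 is a beta chain found in mice that serves interleukin 3, and Csf3r, the G-CSF receptor of the neutrophil lineage, pairs with a copy of itself.

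Median intensities lay between 85.1 and 87.7 on the deposited linear scale in the 4 arrays. Levels below are log2 intensities, differences are Cre-GFP minus control on that scale, and ± after a difference is limma's standard error (SE, n = 2 arrays per group). In limma, 0 of the 20393 probe sets passed an adjusted p of 0.05 (0% of those tested, and 976 at an unadjusted p under 0.05), so no member passed it either. The loci of the fusion did not pass: Kmt2a (Mll) differed by −0.18 ± 0.26 and Aff1 (AF4) by −0.26 ± 0.27 on their brightest probe sets, which may lie outside the construct and then check nothing about its activation. B lineage RNA was present in all arrays, with Ebf1, a transcription factor of early B cells, at 11.71 and 11.60 in Cre-GFP arrays 1 and 2, against 12.30 and 12.03 in control arrays 1 and 2.

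The comparison asked how growth factor receptor RNA differs between the Cre-GFP and the control cultures. Csf1 was the member that stood farthest from the controls, 2.50-fold lower in Cre-GFP on its brightest probe set, and Csf1r stood 2.19-fold higher on its brightest one. Flt3 and Kit differed by under 0.2 on the log2 scale, and the cytokine receptor chains by −0.47 to 0.34. Of the 16 member probe sets, 6 had an unadjusted p under 0.05 in limma, 2 higher and 4 lower, where 4.79% of all probe sets tested did (2.36% higher and 2.42% lower). These 6 were 3 of Csf1, 1 of Csf1r, 1 of Csf2ra and 1 of Csf2rb. Probe sets of 1 gene share their RNA, so these are 4 genes and not 6 separate results. The count was 3 without Cre-GFP 1 and 2 without control 1, where the 2 left were both Csf1. The share of all probe sets at an unadjusted p under 0.05 also moved in those settings, so the counts are descriptions only. The groups did not overlap on 12 of the 16 probe sets, against 30.0% of all probe sets tested.

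**Figure D1:**
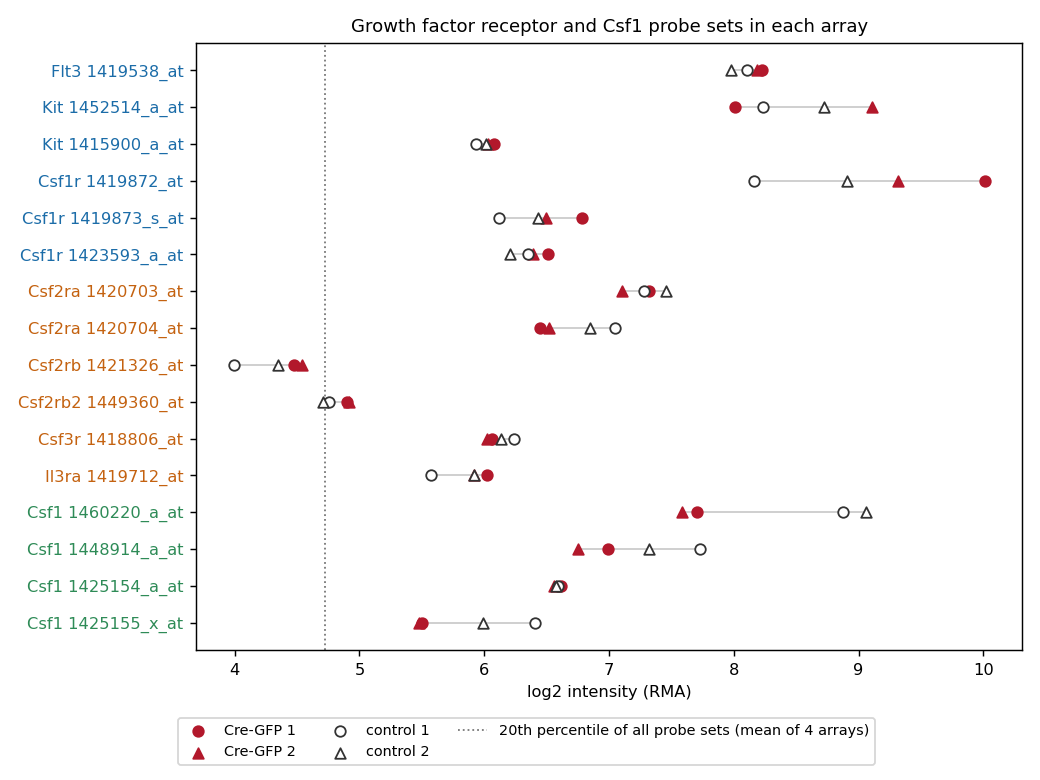
Log2 intensity of the 16 member probe sets (rows) in each of the 4 arrays: filled red symbols are the Cre-GFP arrays, open symbols the control arrays, circles replicate 1 and triangles replicate 2. The dotted line is the 20th percentile of all probe sets (mean of the 4 arrays). Csf1 1460220_a_at and Csf1r 1419872_at have the widest gaps between groups, and Kit 1452514_a_at spreads within both groups.

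Csf1 was measured by 4 probe sets. The brightest, 1460220_a_at, read 7.70 and 7.59 in Cre-GFP arrays 1 and 2, against 8.87 and 9.06 in control arrays 1 and 2. Both Cre-GFP arrays lay over 1 log2 unit below either control array. The difference was −1.32 ± 0.17 (95% confidence interval −1.73 to −0.91, adjusted p = 0.28 in limma), the 17th smallest p of the 20393 probe sets. It held between −1.42 and −1.23 when any single array was left out. A second probe set, 1448914_a_at, read 7.00 and 6.76 in the Cre-GFP arrays, against 7.73 and 7.32 in the control arrays, again without overlap, a difference of −0.65 ± 0.20 (adjusted p = 0.85 in limma). That difference was −0.44 without control 1 and −0.86 without control 2. Csf1 1425155_x_at read 5.50 and 5.48 in the Cre-GFP arrays, against 6.40 and 5.99 in the control arrays, a difference of −0.71 ± 0.16 (adjusted p = 0.70 in limma).

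The fourth Csf1 probe set, 1425154_a_at, showed no such gap. It read 6.61 and 6.56 in the Cre-GFP arrays, against 6.59 and 6.57 in the control arrays, a difference of 0.00 ± 0.12 with a 95% confidence interval of −0.30 to 0.31. The platform annotation gives 1425154_a_at and 1425155_x_at the same source sequence record, yet only 1425155_x_at separated the groups. The suffixes _a_at and _x_at mark probes shared among transcripts of a gene or matching other sequences, and all 4 Csf1 probe sets carry one of them, so with shared probe sets left out Csf1 was not measured. On 3 of its 4 probe sets Csf1 was lower without overlap, where 14.6% of all probe sets tested were.

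Promoter sequences are shown for Csf1, the member farthest below the controls, and for Csf2ra, the receptor chain that was lower on its second probe set. They are the 250 bases before the RefSeq gene start (GRCm38.p6, minus strand for both genes, printed 5′ to 3′), chr3:107760470-107760719 for Csf1 and chr19:61228419-61228668 for Csf2ra. Capitals mark GGGCGG, the box bound by Sp1 family factors, and GAGGAA, a core bound by PU.1 and other Ets factors, on either strand.
Csf1: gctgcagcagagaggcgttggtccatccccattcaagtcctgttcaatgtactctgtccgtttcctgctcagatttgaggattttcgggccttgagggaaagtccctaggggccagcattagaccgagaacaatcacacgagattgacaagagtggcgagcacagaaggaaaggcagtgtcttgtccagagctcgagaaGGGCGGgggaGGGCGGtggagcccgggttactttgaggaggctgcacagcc
Csf2ra: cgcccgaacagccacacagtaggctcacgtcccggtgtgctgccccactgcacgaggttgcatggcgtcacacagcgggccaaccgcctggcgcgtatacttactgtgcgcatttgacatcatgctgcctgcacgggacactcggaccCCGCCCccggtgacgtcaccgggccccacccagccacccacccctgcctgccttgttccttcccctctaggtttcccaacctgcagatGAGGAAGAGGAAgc
Csf1 held GGGCGG at 2 places, starting 51 and 41 bases before the gene start, and no GAGGAA. Csf2ra held GAGGAA at 2 places that adjoin without overlap, 14 and 8 bases before the start, and GGGCGG once on the other strand. Neither held the AP-1 motif TGANTCA, where N is any base. Of 32851 RefSeq promoter windows of this length, 23.3% held GAGGAA, 32.7% GGGCGG and 6.75% TGANTCA. Promoter entries matched 7 of the 9 members. GAGGAA was also found in those of Kit, Csf3r and Csf2rb2 and not in those of Flt3 and Il3ra. These matches are descriptions of letters in 1 window per start, and say nothing of which factor was bound.

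Csf1r was measured by 3 probe sets, and Cre-GFP was higher on each without overlap, where 15.4% of all probe sets tested were. The brightest, 1419872_at, read 10.01 and 9.32 in Cre-GFP arrays 1 and 2, against 8.16 and 8.91 in control arrays 1 and 2. The arrays of a group lay 0.69 to 0.75 apart, and the nearest arrays of different groups, Cre-GFP 2 and control 2, differed by less than that. The difference was 1.13 ± 0.34 (95% confidence interval 0.30 to 1.96, adjusted p = 0.85 in limma). It was 0.78 without Cre-GFP 1 and 0.75 without control 1, where the unadjusted p was above 0.05, and 1.48 and 1.50 without the other arrays. Csf1r 1419873_s_at read 6.78 and 6.49 in the Cre-GFP arrays, against 6.11 and 6.43 in the control arrays, a difference of 0.36 ± 0.17. Its arrays stood in the same order as on the brightest probe set. Csf1r 1423593_a_at read 6.51 and 6.39 in the Cre-GFP arrays, against 6.35 and 6.21 in the control arrays, a difference of 0.17 ± 0.13. Here control 1 stood above control 2, the reverse of the other probe sets.

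Monocyte and macrophage markers were read beside Csf1r, because its RNA is abundant in those cells. Of the 13 of 14 listed markers that were measured, 10 were higher and 3 lower, with a median difference of 0.11 against 0.00 over all genes, and 2 had an unadjusted p under 0.05, where 4.56% of all genes did. These were Lyz1, a lysozyme gene closely related to Lyz2 (1.36 ± 0.54, but 0.53 to 2.20 with single arrays left out, lowest without control 1), and Apoe (0.37 ± 0.13). Their summed linear intensity was 5908 in Cre-GFP 1 and 4373 in Cre-GFP 2, against 2215 in control 1 and 4064 in control 2. The 4 arrays stood in the same order for this sum as for Csf1r 1419872_at, but that order rested on Lyz1. Without Lyz1, a setting added after seeing the data, the other 12 markers summed to 2378 in Cre-GFP 1 and 2097 in Cre-GFP 2, against 1597 in control 1 and 2102 in control 2, and the groups overlapped. The groups did not overlap on 4 of the higher markers and 1 of the lower, where 15.2% and 14.9% of genes did. Lyz2 read 9.39 and 8.88 in the Cre-GFP arrays, against 7.55 and 8.76 in the control arrays, the array order of Csf1r 1419872_at. Ccr2 was also higher without overlap (0.42 ± 0.19), and Cd68 was higher with overlap (0.49 ± 0.30). Adgre1, the F4/80 antigen of macrophages, read 7.21 and 7.06 in the Cre-GFP arrays, against 7.20 and 7.16 in the control arrays. Fcgr1 read 3.74 to 3.88 in the 4 arrays, a level under each array's 20th percentile. The part of monocytes and macrophages in the Csf1r difference was not tested. In these bulk samples a change in the share of cells of a type and a change in RNA per cell cannot be told apart.

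**Figure D2:**
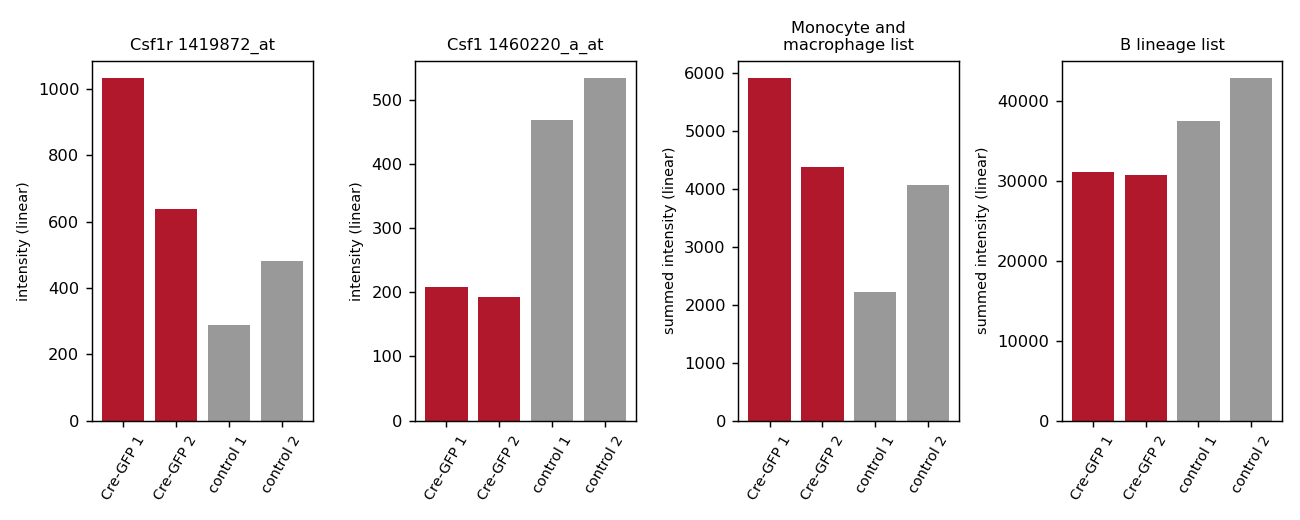
Linear intensity of the brightest Csf1r and Csf1 probe sets and summed linear intensity of the monocyte and macrophage and the B lineage marker lists, 1 bar per array (red Cre-GFP, grey control). Csf1r and the monocyte and macrophage sum share the order of the 4 arrays, an order that the sum does not keep without Lyz1. Csf1 and the B lineage sum are both lower in the 2 Cre-GFP arrays.

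Most B lineage markers were lower in the Cre-GFP arrays, as Csf1 was, but with 2 groups any gene lower in Cre-GFP shares those arrays. Of the 14 of 15 listed markers that were measured, 12 were lower and 2 higher, with a median difference of −0.44, and 6 had an unadjusted p under 0.05, all lower, where 2.38% of all genes were. The 2 higher were Rag2 (0.38 ± 0.17, without overlap) and Rag1 (0.23 ± 0.27, with overlap). The summed intensity of the markers was 31154 and 30749 in Cre-GFP arrays 1 and 2, against 37501 and 42867 in control arrays 1 and 2. Without Igll1, the brightest, a setting added after seeing the data, the other 13 summed to 18701.5 and 17733.5 in Cre-GFP. The control arrays then summed to 23047.7 and 28279. The part of B lineage cells in the Csf1 difference was not tested.

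Flt3, the receptor of early lymphoid and myeloid progenitors, was measured by 1 probe set, 1419538_at. It read 8.23 and 8.18 in the Cre-GFP arrays, against 8.11 and 7.98 in the control arrays, without overlap but with a difference of only 0.16 ± 0.16 (95% confidence interval −0.23 to 0.55). That interval leaves room for a change of up to 0.55 on the log2 scale.

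Kit, the stem cell factor receptor, spread more within groups than between them on its brighter probe set. Kit 1452514_a_at read 8.01 and 9.11 in Cre-GFP arrays 1 and 2, against 8.24 and 8.72 in control arrays 1 and 2. In both groups replicate 2 was the higher array, by 1.10 in Cre-GFP and 0.48 in control. The difference was 0.08 ± 0.38 with a 95% confidence interval of −0.87 to 1.03, so these arrays could not settle its direction: it was −0.47 without Cre-GFP 2, −0.16 without control 1, 0.63 without Cre-GFP 1 and 0.32 without control 2. Kit 1415900_a_at read 6.08 and 6.03 in the Cre-GFP arrays, against 5.94 and 6.02 in the control arrays, a difference of 0.08 ± 0.11. Mast cell, basophil and eosinophil markers were listed because such cells keep Kit. They had a summed intensity of 725 to 735 in Cre-GFP and 728 to 732 in control, with 6 of 12 measured markers higher. Gata2 made up 21.3% to 25.7% of that sum, and Fcer1a, Prg2, Ms4a2 and Gata1 lay under the 20th percentile of mean level. Tpsb2 (0.38 ± 0.13) was the 1 marker at an unadjusted p under 0.05 in limma, higher, where 2.18% of all genes were.

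Among the cytokine receptor chains, Csf2ra, the GM-CSF-binding chain, was lower on 1 of its 2 probe sets. Csf2ra 1420704_at read 6.44 and 6.52 in the Cre-GFP arrays, against 7.05 and 6.84 in the control arrays, without overlap. The difference was −0.47 ± 0.14, or 1.38-fold lower (95% confidence interval −0.81 to −0.12, adjusted p = 0.85 in limma). It kept its sign without any single array and was −0.36 without control 1. Csf2ra 1420703_at, the brighter, read 7.32 and 7.11 in the Cre-GFP arrays, against 7.28 and 7.46 in the control arrays. The groups overlapped there, and the difference was −0.16 ± 0.16, or −0.05 without Cre-GFP 2.

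The beta chains Csf2rb and Csf2rb2 are neighbouring, closely related genes on mouse chromosome 15, with 1 microRNA gene, Mir7676-1, listed between them. Csf2rb 1421326_at read 4.48 and 4.54 in the Cre-GFP arrays, against 3.99 and 4.35 in the control arrays, all under the 20th percentile of their arrays. Its difference of 0.34 ± 0.14, just past an unadjusted p of 0.05 in limma, was 0.16 without control 1, and it was −0.0036 with a floor at the 20th percentile of each array. Csf2rb2 1449360_at read 4.90 and 4.92 in the Cre-GFP arrays, against 4.75 and 4.71 in the control arrays, near that percentile, a difference of 0.18 ± 0.09. A further probe set, 1450200_s_at, is annotated to both genes and so was no member. It read 6.95 and 6.88 in the Cre-GFP arrays, against 7.04 and 6.87 in the control arrays, a difference of −0.04 ± 0.14 with a 95% confidence interval of −0.39 to 0.31.

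Il3ra, the interleukin 3 binding chain, read 6.03 and 5.91 in the Cre-GFP arrays, against 5.57 and 5.92 in the control arrays on 1419712_at. Control 1 alone was low, and the difference of 0.22 ± 0.15 was 0.05 without that array. Csf3r read 6.06 and 6.02 in the Cre-GFP arrays, against 6.24 and 6.14 in the control arrays on 1418806_at, without overlap, a difference of −0.15 ± 0.12. Neutrophil and granule markers, which accompany Csf3r in cells, had a summed intensity of 4018 and 4699 in the Cre-GFP arrays, against 1788 and 5548 in the control arrays. Of the 13 of 15 listed that were measured, 8 were higher and 5 lower, with 3 higher and 1 lower at an unadjusted p under 0.05, where 2.18% and 2.38% of all genes were. The 3 higher were Mpo (myeloperoxidase, 1.25 ± 0.15), Ctsg (cathepsin G, 0.99 ± 0.16) and Prtn3 (proteinase 3, 0.70 ± 0.26, or 0.32 without control 2), enzymes stored in granules of myeloid precursors. Mmp9, a matrix metalloproteinase of mature neutrophils, was the lower one, at −0.54 ± 0.17, or −0.32 without Cre-GFP 2. The part of myeloid cells in the Csf3r and Il3ra values was not tested.

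**Figure D3:**
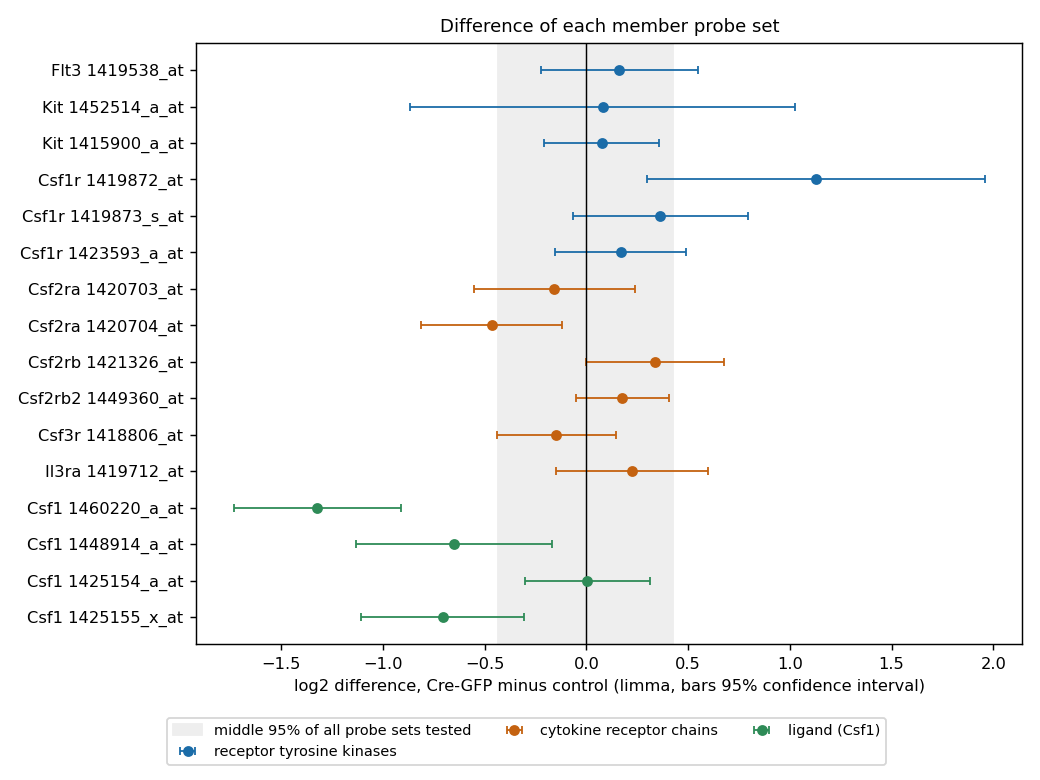
Log2 difference (Cre-GFP minus control) of each member probe set with its 95% confidence interval from limma, coloured by class; the grey band holds the middle 95% of all probe sets tested. The intervals of 3 Csf1 probe sets and 1 Csf2ra probe set lie wholly below 0, and those of 1 Csf1r and 1 Csf2rb probe set wholly above it.

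The receptor tyrosine kinases were then set against the cytokine receptor chains. All 6 probe sets of Flt3, Kit and Csf1r were higher in Cre-GFP, 5 of them without overlap, where 15.4% of all probe sets tested were. Their median difference was 0.17. Csf1r alone holds 3 of those 5, and probe sets of 1 gene are not separate results. Of the 6 probe sets of the chains, 3 were higher and 3 lower, 2 of each without overlap (15.4% higher and 14.6% lower over all probe sets), with a median of 0.01. Over all probe sets tested the median was 0.00. By the brightest probe set per gene the medians were 0.16 for the 3 kinases and 0.18 for the 5 chains, which does not separate the classes. On these probe sets 2 of the 3 kinases were higher without overlap. Of the 5 chains 2 were higher and 1 lower without overlap (15.2% higher and 14.9% lower over all genes).

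A score per array, the mean level of the 3 kinases minus that of the 5 chains, was 2.99 and 3.17 in Cre-GFP arrays 1 and 2, against 2.60 and 2.82 in control arrays 1 and 2. The groups did not overlap, and the difference of 0.37 ranged over 0.26 to 0.48 with any 1 array removed. It was 0.03 without Csf1r, a setting chosen after seeing the data, against 0.56 without Kit and 0.52 without Flt3. With the median over genes in place of the mean it was 0.0033. No p is given for this score, since its members were chosen with results known, and 2 against 2 arrays cannot reach a two-sided exact permutation p below 0.333.

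**Figure D4:**
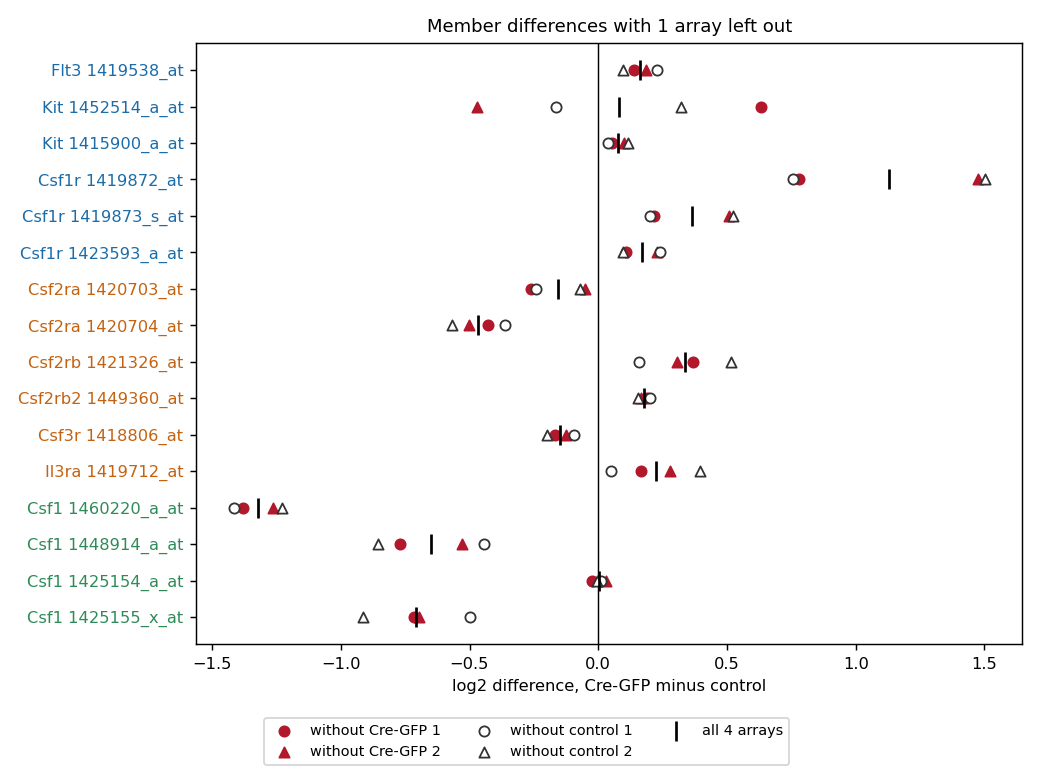
Log2 difference (Cre-GFP minus control) of each member probe set with all 4 arrays (black bar) and with 1 array left out (symbols as named in the legend). Csf1 1460220_a_at keeps to between −1.42 and −1.23, whereas Kit 1452514_a_at runs from −0.47 to 0.63.

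The other measured ligands of these receptors showed no difference like that of Csf1, but all were dimmer. By mean level the brightest Csf1 probe set stood at percentile 77.3 of the probe sets tested. Csf2, Kitl and Csf3 stood at 46.2, 40.1 and 38.5, and Il5, Il34 and Il3 at 22.6, 20.8 and 18.2. Differences near 0 at such low levels cannot show that these RNAs did not change. Of the 7 of 8 ligands measured (Flt3l lies only on a probe set with several genes), Csf1 alone had an unadjusted p under 0.05, where 4.56% of genes did by their brightest probe set. Kitl (stem cell factor), Csf2 (GM-CSF), Csf3 (G-CSF) and Il34, the other ligand of Csf1r, differed by 0.03 ± 0.13, 0.03 ± 0.12, 0.03 ± 0.12 and −0.00 ± 0.12. Il5 and Il3 differed by 0.19 ± 0.15 and −0.07 ± 0.12. Il3 turned to 0.06 without control 2 and Il5 to −0.00012 without Cre-GFP 1.

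Of 25 other cytokine and growth factor receptors measured, 16 were lower and 9 higher, with a median difference of −0.07. At an unadjusted p under 0.05 in limma there were 0, where 4.56% of all genes were. The groups did not overlap on 10 of the lower and 1 of the higher ones, where 14.9% and 15.2% of genes did. The 3 with the smallest p were Il21r (−0.35 ± 0.15), Il7r, the interleukin 7 receptor chain of lymphoid progenitors (−0.94 ± 0.41), and Il2ra, an interleukin 2 receptor chain (−0.42 ± 0.22). Il7r was −0.35 without control 2 and Il2ra −0.13 without control 1.

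Of 24 measured kinases, adaptors and Stat factors next to the receptors, 12 were higher and 12 lower. At an unadjusted p under 0.05 in limma there were 0, where 4.56% of all genes were. The groups did not overlap on 7 of the higher and 2 of the lower ones, where 15.2% and 14.9% of genes did. Pik3cd, a catalytic subunit of PI3 kinase, read 9.67 and 9.58 in the Cre-GFP arrays, against 9.94 and 10.07 in the control arrays (−0.38 ± 0.16, and 0.18 and −0.22 on its other probe sets). Plcg2, a phospholipase of B cell and myeloid signalling, differed by 0.39 ± 0.18, or 0.22 without Cre-GFP 1. Fes, a myeloid tyrosine kinase, differed by 0.31 ± 0.15, and by 0.10 ± 0.14 on its dimmer probe set.

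Of 21 inhibitors and feedback genes, 10 were higher and 11 lower. Pim1 and Cish, which are induced by Stat5 after cytokine stimulation, had an unadjusted p under 0.05, both lower, where 2.38% of genes were. Related genes of the list did not all go that way. Socs2 (0.12 ± 0.24), Socs3 (0.04 ± 0.21) and Pim2 (0.05 ± 0.13) were slightly higher, and Socs1 (−0.25 ± 0.16) was lower. Stat5 activity was not tested. Pim1 read 11.13 and 11.56 in the Cre-GFP arrays, against 11.79 and 12.47 in the control arrays, a difference of −0.79 ± 0.27 (adjusted p = 0.93 in limma), which was −0.45 without control 2. A dimmer Pim1 probe set differed by −0.13. Cish read 9.65 and 10.01 in the Cre-GFP arrays, against 10.39 and 10.27 in the control arrays, a difference of −0.50 ± 0.19, or −0.32 without Cre-GFP 1. Pag1, a membrane adaptor that restrains Src family kinases, differed by 0.56 ± 0.34, or 0.03 without control 1. Its dimmer probe set differed by 0.09 ± 0.15.

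Transcription factors known to bind the receptor genes were 8 higher and 6 lower of 14 measured. In limma 4 were higher at an unadjusted p under 0.05, where 2.18% of genes were. This list, like the others, was chosen with earlier results of these data known, so its count is a description only. Meis1 (1.73 ± 0.14), Lmo2 (1.65 ± 0.28) and Hoxa9 (1.26 ± 0.18) are progenitor factors raised in MLL leukemia, and the fourth was Tal1 (0.28 ± 0.09), a dim gene that differed by 0.14 with a floor at the 20th percentile of each array. Meis1, Lmo2 and Hoxa9 kept an unadjusted p under 0.05 without any single array, and the second Hoxa9 probe set differed by 0.45 ± 0.19.

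**Figure D5:**
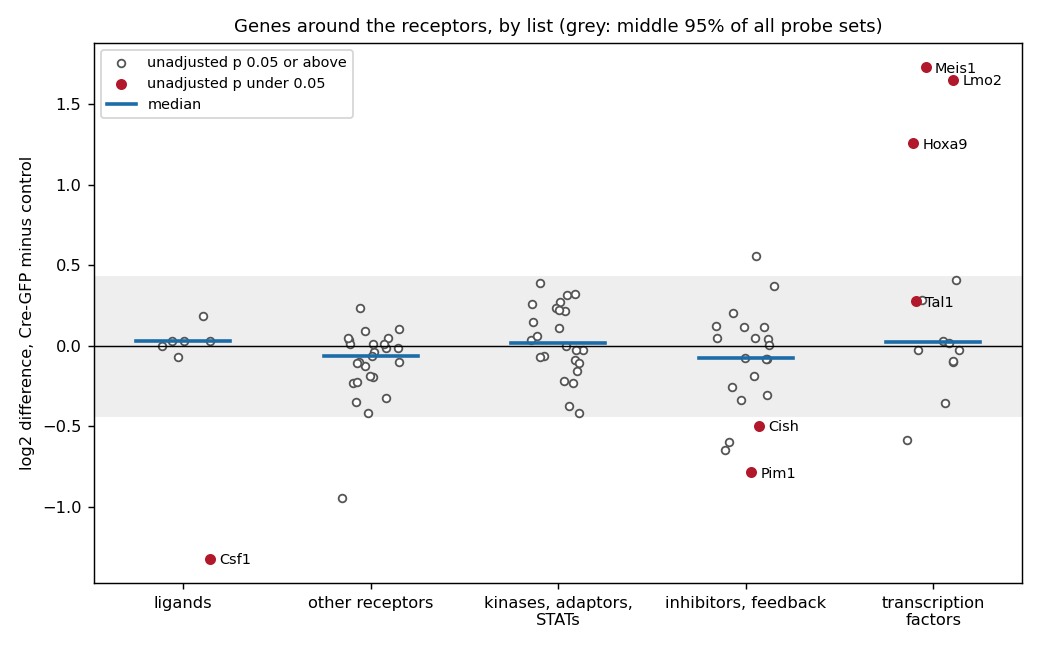
Log2 difference (Cre-GFP minus control) of each measured gene in the 5 lists around the receptors, by its brightest probe set; filled red points have an unadjusted p under 0.05 in limma, blue bars are list medians and the grey band holds the middle 95% of all probe sets tested. The list medians lie between −0.07 and 0.03, and Csf1 is the 1 ligand outside the grey band and also the brightest ligand measured.

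Genes with the profile nearest to a member over the 4 arrays were sought for the 3 members whose brightest probe set spanned at least 1 log2 unit, among 6196 genes at or above the median level. The distance is Euclidean over centred log2 levels, and with 4 arrays it is a description only. Nearest to Csf1 were Pik3cg (distance 0.15), a PI3 kinase subunit that acts below G protein-coupled receptors, Gbp2b (0.17), an interferon-inducible GTPase, and Ccn3 (0.27), a secreted matrix protein. Nearest to Csf1r were Lyz2 (0.39), the lysozyme of macrophages and granulocytes, Mmp2 (0.43), a matrix metalloproteinase, and Fdps (0.52), an enzyme of the cholesterol pathway. Nearest to Kit were Hif1a (0.04), the oxygen-regulated transcription factor, Uchl5 (0.13), a deubiquitinase of the proteasome, and C1galt1c1 (0.14), a chaperone of O-glycan synthesis, which like Kit were higher in replicate 2 of both groups.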

How the data were processed

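Gene expression was measured in 2 Cre-GFP and 2 control samples, 1 array each, from 20 ng of amplified RNA. The deposited table holds linear probe set intensities that the authors made with RMA, per the submitters' processing notes; no version is named there. RMA normally corrects background, equalizes arrays by quantiles and compresses differences of dim probe sets. Deposited intensities were log2-transformed without further scaling. Of 22690 probe sets, 20393 had 1 gene symbol in the platform annotation, 691 several and 1606 none; the last 2 kinds were left out of the tests. Gene numbers of 20364 matched RefSeq (GRCm38.p6), with 0 symbols changed.

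Groups were compared per probe set with limma 3.58.1 in R 4.3.3 (lmFit, eBayes with an intensity trend, two-sided), adjusted by Benjamini-Hochberg over the 20393 probe sets, threshold 0.05. The median 95% confidence interval reached 0.37 to either side; precision is limited by how few arrays there are. The fit was tested on simulated data. A gene's brightest probe set is that with the highest mean level. Named genes were all members, up to 3 genes with the smallest p in each of 5 pathway lists, and for members spanning 1 log2 unit the 3 nearest profiles; 8 marker lists were also read, and genes named outside this rule were chosen after their values were seen. Members and lists were chosen with earlier results of these data known. Alternatives were repeated quantile normalization, a floor at the 20th percentile, leaving out the dimmest 40% of probe sets, a pseudocount of 16, no intensity trend, the replicate number as a block, 1 probe set per gene, no shared probe sets, other class summaries, and leaving out each array. Scan dates were not used here, and no test of scan batches was made.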

Additional observations from a re-analysis of the deposited data

How the results depend on the processing

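No member probe set passed the adjusted threshold under any alternative run. Over all probe sets 0 passed, and leaving out single arrays gave 0 to 25 (25 without control 1 and 1 without control 2, with 0 members among them). Of 156 values of member probe sets under alternatives, 150 kept their direction and 6 turned: Kit 1452514_a_at (−0.47 without Cre-GFP 2 and −0.16 without control 1, within a range of −0.47 to 0.63), Csf1 1425154_a_at (−0.0067 with repeated quantile normalization, −0.023 without Cre-GFP 1 and −0.0037 without control 2, within a range of −0.023 to 0.032) and Csf2rb (−0.0036 with values raised to the 20th percentile). The cause was not tested. The 6 member probe sets at an unadjusted p under 0.05 became 2 to 7 when single arrays were left out, 3 of 9 with 1 probe set per gene and 3 of 8 without shared probe sets, settings that test fewer members. Of all those tested in limma, 4.84% had such a p with 1 probe set per gene and 4.93% without shared probe sets. With single arrays left out the share over all probe sets moved as well, and 1 group then holds 1 array. Member counts from those fits are therefore descriptions only. The kinase minus chain difference of 0.37 became 0.61 without the dimmest probe sets (which removes dim chains). Without shared probe sets it was 0.56, the same value as without Kit, since both Kit probe sets are shared ones. It was 0.21 with the mean of all probe sets of a gene, 0.0033 with the median over genes and 0.034 without Csf1r. With single arrays left out it lay between 0.26 and 0.48. The replicate numbers are not stated to pair samples. The within-group differences of the 2 groups correlated at 0.36 over 20393 probe sets, and with the replicate number as a block 0 probe sets passed. In that limma fit 6 member probe sets, of Csf1, Csf1r, Csf2ra and Csf2rb, had an unadjusted p under 0.05. Of all probe sets 1547 did (7.59%), against 976 without the block. With 2 arrays a group, the Flt3 and Kit intervals allow changes of up to 0.55 and 1.03.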

Other observations

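Marker lists of other cell types were read in the same arrays. Dendritic cell markers, which include Flt3, had a summed linear intensity of 3411 and 2786 in Cre-GFP 1 and 2 and of 3023 and 2942 in control 1 and 2, with 8 of 10 measured markers higher. Tcf4 made up 75.9% and 72.1% of that sum in Cre-GFP 1 and 2, against 75.2% and 74.7% in control 1 and 2. At an unadjusted p under 0.05 in limma 2 markers were higher and 1 lower, where 2.18% and 2.38% of all genes were. The 2 higher were Bst2 (0.67 ± 0.27, or 0.27 without control 1) and Ccr9 (0.24 ± 0.10). Ccr9 is dim and differed by 0.03 with a floor at the 20th percentile of each array. Ccr7, the homing receptor of mature dendritic cells and lymphocytes, was the lower one, at −0.75 ± 0.18. It lay between −0.96 and −0.54 with single arrays left out. Of 9 measured erythroid and megakaryocyte markers 5 were higher and 4 lower, with a median difference of 0.03. They summed to 988 and 1031 in Cre-GFP, against 1778 and 1725 in control, a gap that lay in Car2 alone: without it, a setting added after seeing the data, the Cre-GFP arrays summed to 596 and 566 and the control arrays to 592 and 565. Car2, a carbonic anhydrase, read 8.61 and 8.86 in the Cre-GFP arrays, against 10.21 and 10.18 in the control arrays. T and NK cell markers summed to 1944 and 2144 in Cre-GFP and to 2320 and 1852 in control, with overlap. Stem cell and early progenitor markers, which include Kit and Flt3, were higher in 8 of 12 cases with a median difference of 0.05. Their summed intensity was 4299 and 2666 in Cre-GFP, against 13927 and 12787 in control, and without Mycn (also added after seeing the data), a Myc family transcription factor, it was 1352 and 1625 in Cre-GFP, against 1229 and 1316 in control. Mycn made up 68.6% and 39.0% of the sum in Cre-GFP 1 and 2, against 91.2% and 89.7% in control 1 and 2, with log2 levels on its brightest probe set of 11.53 and 10.02 in Cre-GFP 1 and 2, against 13.63 and 13.49 in control 1 and 2 (difference −2.78 ± 0.46, adjusted p = 0.40 in limma).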
